A study of Mus musculus with 96 samples.

Results

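The fatty acid elongases Elovl1 to Elovl7 were followed through brown and white fat of the mouse. Members were taken by gene symbol from the deposited transcript table, and the transcript row with the highest mean over all libraries stood for each gene. This gave 7 genes out of 29072 gene symbols, each with a value in all 96 libraries. The libraries came from interscapular brown fat (iBAT), which makes heat, and from inguinal white fat (iWAT), which lies under the skin and mainly stores lipid, of male C57BL/6J mice. The animals were wildtype or UCP1(-/-), a knockout of uncoupling protein 1, the mitochondrial carrier through which brown fat makes heat. Each genotype was kept for 4 weeks under 1 of 3 conditions: control diet with 13% of energy from fat at 20 °C, the same diet at 30 °C, or a high fat diet with 48% of energy from fat at 30 °C, near thermoneutrality for a mouse. This made 12 groups of 8 libraries, the libraries of a group coming from separate animals per the series design. No label tied an iBAT library to the iWAT of the same animal, no source used here gives the ages of the mice, and the labels gave no batch.

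Elongases of the Elovl family sit in the endoplasmic reticulum and catalyse the first, rate-limiting step of the cycle that adds carbons to a fatty acyl-CoA, with malonyl-CoA as the donor. The members differ in the chains they accept. Elovl6 lengthens palmitate and other products of fatty acid synthase, Elovl1, Elovl3 and Elovl7 lengthen saturated and monounsaturated chains, and Elovl2, Elovl4 and Elovl5 act on polyunsaturated chains, Elovl4 also on very long saturated ones. Elovl3 was first found as a cold-induced transcript of mouse brown fat and has long served as a marker of recruited brown fat.

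Levels are given in RPKM, the reads of a transcript per kilobase of its length and per M reads (1 M is 1 mega), a scale on which genes of different length can be set side by side. Differences are given in log2(RPKM + 1) with the standard error from limma, a linear model fitted to all genes, and with p-values adjusted by the Benjamini-Hochberg method over all genes tested in the comparison; those at or below 0.05 are called. Ranges of groups are described as overlapping or apart over 8 libraries a group. Depth was 8.91 to 19.2 M reads a library, with a median of 11.85 M, so 1 read of a 1-kb transcript equalled 0.052 to 0.112 RPKM. As a check of the depots, Zic1, a transcription factor of brown fat, lay between 1.98 and 5.18 RPKM in iBAT and at or below 0.128 RPKM in iWAT. Hoxc9, a gene of posterior white depots, lay between 3.02 and 8.27 RPKM in iWAT and at or below 0.454 RPKM in iBAT. Ucp1 in UCP1(-/-) iBAT had means of 1005, 736 and 778 RPKM at 20 °C, 30 °C and with high fat feeding, against 3793, 8227 and 6466 RPKM in wildtype iBAT, with the ranges apart. In iWAT its level did not check the genotype, with means of 306, 83.9 and 12.9 RPKM in UCP1(-/-) and 133, 33.4 and 15.3 RPKM in wildtype mice, and the deleted part of the gene is not stated in the labels.

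RPKM are shares of a library, and the median gene moved between groups. At 20 °C it lay below 30 °C by −0.12 (wildtype) and −0.34 (UCP1(-/-)) in iBAT and by −0.10 and −0.25 in iWAT. For UCP1(-/-) minus wildtype it lay at 0.06, 0.27 and 0.25 in iBAT at 20 °C, at 30 °C and with high fat feeding, and at −0.27, −0.12 and −0.04 in iWAT. Between iBAT and iWAT it lay at −0.43, −0.43 and −0.40 in wildtype and at −0.15, −0.07 and −0.16 in UCP1(-/-) mice, while diet moved it by −0.01 to 0.09. Of all genes called at 20 °C against 30 °C, 26.1%, 18.9%, 37.0% and 14.9% were higher in wildtype iBAT, UCP1(-/-) iBAT, wildtype iWAT and UCP1(-/-) iWAT. Median-ratio scaling made this 50.0%, 46.7%, 70.8% and 63.4%, and quantile normalization 49.7%, 53.2%, 64.7% and 53.6%. For genotype the share higher in UCP1(-/-) iBAT was 65.4%, 83.7% and 82.7% in the 3 conditions (51.5%, 52.0% and 51.1% under median-ratio scaling), and in UCP1(-/-) iWAT it was 15.2%, 31.7% and 68.9% (54.5%, 68.3% and 84.1%). Values that move by over 1.5 times, or whose call changes, under another scaling are therefore given with it for the 4 abundant members.

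Promoter windows of 250 bases before the annotated start were read for 6 of the 7 members, with 8 windows in all, from RefSeq tables of the build GRCm38.p6. Elovl3 had no entry. Those of Elovl6, Elovl5 and Elovl1 are shown because, in the same samples, RNA of Elovl6 moved by much, RNA of Elovl5 by little and RNA of Elovl1 in the opposite direction. Capitals mark the motifs searched: the CCAAT box (CCAAT), the E-box (CACGTG), the sterol element (TCACNCCAC) and the GC box (GGGCGG), each on both strands, so that ATTGG is a CCAAT box and CCGCCC a GC box read from the other strand. The windows lie on the plus strand at chr3:129532136-129532385 for Elovl6, at chr9:77917115-77917364 for Elovl5 and at chr4:118427843-118428092 for Elovl1, the first of its windows in the table.
Elovl6: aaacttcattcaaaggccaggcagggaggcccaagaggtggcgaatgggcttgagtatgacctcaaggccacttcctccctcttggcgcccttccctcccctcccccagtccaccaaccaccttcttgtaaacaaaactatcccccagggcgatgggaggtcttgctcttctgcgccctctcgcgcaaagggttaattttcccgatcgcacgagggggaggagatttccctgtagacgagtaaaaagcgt
Elovl5: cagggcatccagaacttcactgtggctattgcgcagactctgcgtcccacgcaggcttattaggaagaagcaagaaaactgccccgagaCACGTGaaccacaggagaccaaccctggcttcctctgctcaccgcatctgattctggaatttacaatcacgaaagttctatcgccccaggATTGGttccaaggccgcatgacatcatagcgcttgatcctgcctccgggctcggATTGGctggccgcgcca
Elovl1: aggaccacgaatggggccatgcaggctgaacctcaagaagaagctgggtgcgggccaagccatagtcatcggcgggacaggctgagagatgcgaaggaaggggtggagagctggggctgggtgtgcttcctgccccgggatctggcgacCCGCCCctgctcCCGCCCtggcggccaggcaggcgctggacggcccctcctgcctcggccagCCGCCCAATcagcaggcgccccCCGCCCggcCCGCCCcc
The Elovl6 window held no match to any of the 4 motifs. In the Elovl5 window an E-box lay 161 to 156 bases before the start and CCAAT boxes lay 71 to 67 and 17 to 13 bases before it. The Elovl1 window held 5 GC boxes and a CCAAT box at 35 to 31 bases, which overlaps the GC box at 39 to 34 bases. Of 32851 windows of this length in the table, 33.8% held a CCAAT box, 6.02% an E-box, 1.05% a sterol element and 32.7% a GC box. A match is a run of letters and not a measured binding site.

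Elovl3, which makes saturated and monounsaturated chains of intermediate and great length, ran from 0.158 to 1262 RPKM over the 96 libraries. In wildtype iBAT it lay between 176 and 371 RPKM at 20 °C (median 283), between 111 and 243 RPKM at 30 °C (median 131) and between 7.33 and 176 RPKM on high fat diet (median 29.2). UCP1(-/-) iBAT had lowest, median and highest libraries of 812, 996 and 1262 RPKM at 20 °C, 166, 234 and 543 RPKM at 30 °C, and 80.8, 108 and 160 RPKM on high fat diet. Every UCP1(-/-) library at 20 °C thus lay above every other iBAT library, and the other iBAT groups overlapped at least 1 neighbour. Means in the same order were 278 ± 56.7, 152 ± 44.2 and 45.5 ± 53.9 RPKM in wildtype and 1008 ± 139, 272 ± 119 and 116 ± 26.3 RPKM in UCP1(-/-) iBAT (SD, n = 8).

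In iWAT, Elovl3 ranged from near 0 to brown fat levels. Wildtype iWAT had 5.76, 21.0 and 39.8 RPKM at 20 °C as its lowest, median and highest library, 0.966, 2.22 and 7.66 RPKM at 30 °C and 0.158, 0.357 and 5.57 RPKM on high fat diet. UCP1(-/-) iWAT had 210, 287 and 741 RPKM at 20 °C, 22.1, 30.3 and 34.1 RPKM at 30 °C and 0.432, 1.85 and 5.46 RPKM on high fat diet. The UCP1(-/-) iWAT libraries at 20 °C lay above all other iWAT libraries and overlapped wildtype iBAT of the same temperature. On high fat diet the genotypes overlapped, but 1 wildtype library, replicate 87 at 5.57 RPKM, made most of the overlap: the other wildtype libraries lay between 0.158 and 0.496 RPKM. The group means were 20.7 ± 11.9, 3.36 ± 2.48 and 1.00 ± 1.85 RPKM in wildtype and 338 ± 174, 29.4 ± 3.55 and 2.24 ± 1.84 RPKM in UCP1(-/-) iWAT.

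**Figure D1:**
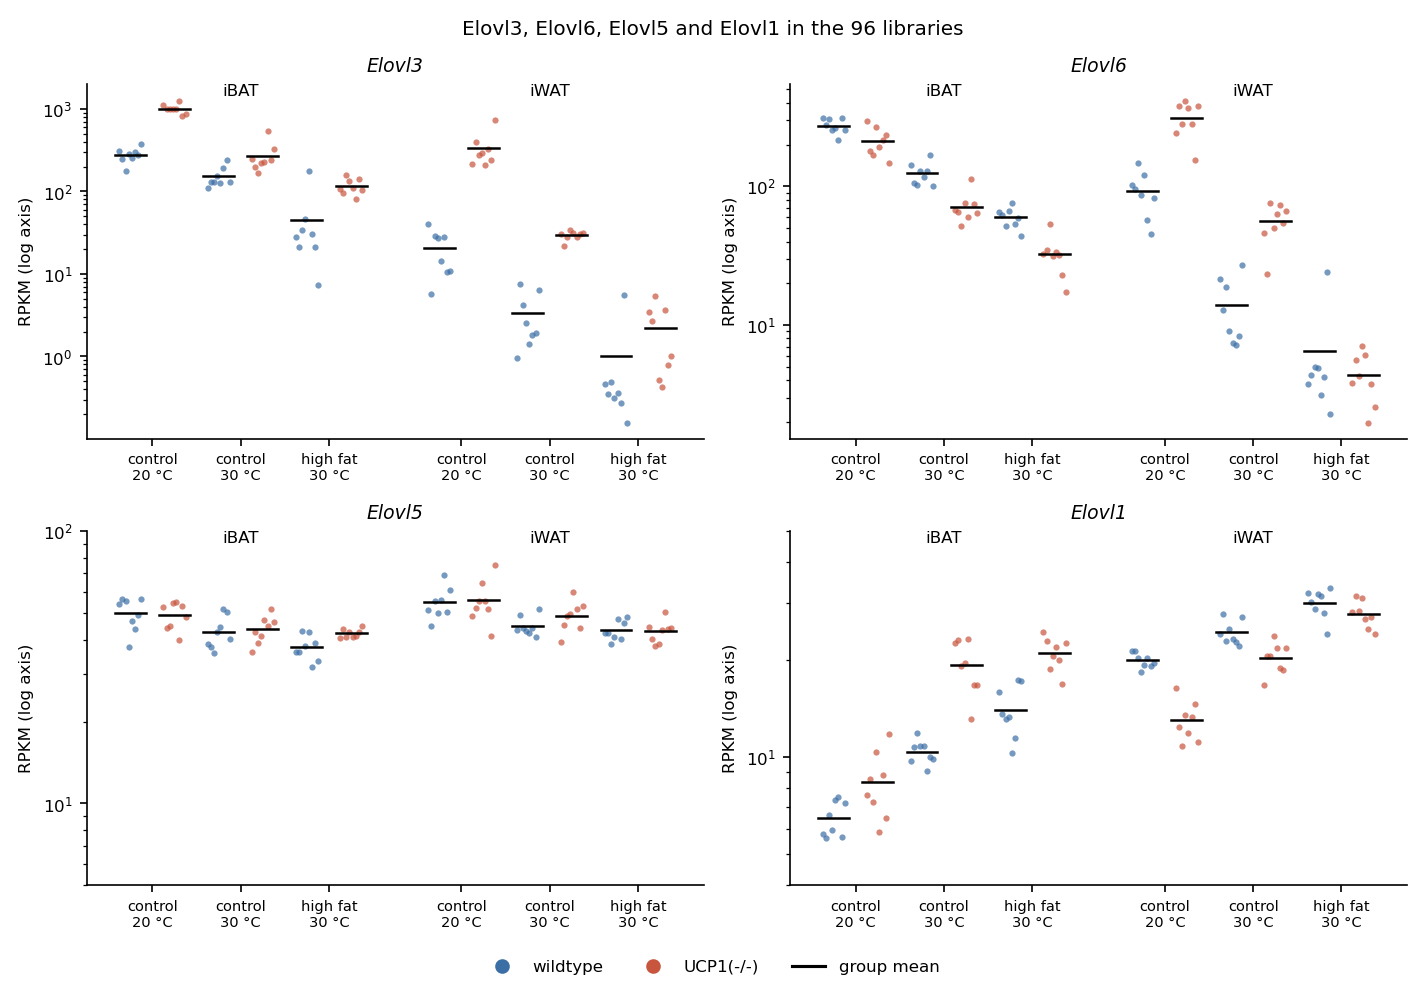
RPKM of the 4 abundant elongases (Elovl1, Elovl3, Elovl5 and Elovl6) on a log axis, with 1 point for each of the 8 libraries in each of the 12 groups and a bar at the group mean. Elovl3 spans 0.158 to 1262 RPKM and is highest in UCP1(-/-) iBAT at 20 °C, while Elovl5 stays between 31.8 and 75.4 RPKM.

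Elovl3 rose at 20 °C against 30 °C in both tissues and both genotypes. The difference was 0.88 ± 0.29 in wildtype iBAT (adjusted p = 0.0112, limma) and 1.97 ± 0.29 in UCP1(-/-) iBAT (adjusted p = 6.51e-08, limma), and these differed by 1.09 ± 0.41 (interaction, adjusted p = 0.0235, limma). In iWAT the rises were 2.28 ± 0.35 and 3.37 ± 0.35 (adjusted p = 6.08e-06 and 2.06e-10, limma), and their difference of 1.09 ± 0.50 did not pass (adjusted p = 0.136, limma). Ranges were apart in UCP1(-/-) mice and overlapped in wildtype mice. Elovl3 rose by more in iWAT than in iBAT: iBAT minus iWAT was −1.40 ± 0.46 in wildtype mice (adjusted p = 0.0249, limma) and −1.40 ± 0.46 in UCP1(-/-) mice (adjusted p = 0.0171, limma, and 0.0505 with a pseudocount of 0.1).

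High fat feeding lowered Elovl3 in all 4 comparisons at 30 °C. The differences were −2.21 ± 0.29 and −1.15 ± 0.29 in wildtype and UCP1(-/-) iBAT (adjusted p = 8.44e-08 and 0.00389, limma). In iWAT they were −1.23 ± 0.35 and −3.43 ± 0.35 (adjusted p = 0.0136 and 9.04e-10, limma). The wildtype value rested on low levels, with 1 of 8 libraries on high fat diet reaching 0.5 RPKM. It became −2.22 with a pseudocount of 0.1 (adjusted p = 0.00101, limma). In iWAT the fall in UCP1(-/-) mice exceeded that in wildtype mice by −2.20 ± 0.50 (adjusted p = 0.0147, limma). This call was lost with a pseudocount of 0.1 (−1.90, adjusted p = 0.157) and with the transcript rows of a gene summed (−2.14, adjusted p = 0.062). In iBAT the genotypes differed in their response to diet by 1.06 ± 0.41 (adjusted p = 0.109, limma), and by 1.41 (adjusted p = 0.00317) without replicate 37, a wildtype library on high fat diet at 176 RPKM among others of 7.33 to 46.5 RPKM. Fasn, the fatty acid synthase, stood at 634 RPKM in replicate 37 and at 134 to 294 RPKM in the rest of its group, and its part in the result was not tested.

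Between genotypes, Elovl3 was higher in UCP1(-/-) mice in every condition of iBAT, by 1.87 ± 0.29 at 20 °C (adjusted p = 8.81e-07, limma), 0.78 ± 0.29 at 30 °C (adjusted p = 0.0162, limma) and 1.84 ± 0.29 on high fat diet (adjusted p = 4.58e-07, limma). The call at 30 °C was lost with median-ratio scaling (0.45, adjusted p = 0.19) and without replicate 30 (0.63, adjusted p = 0.0531), a UCP1(-/-) library at 543 RPKM among others of 166 to 327 RPKM. In iWAT the difference was 4.07 ± 0.35 at 20 °C, a 16.7-fold step on the log2(RPKM + 1) scale (adjusted p = 1.52e-12, limma), and 2.98 ± 0.35 at 30 °C, a 7.89-fold step (adjusted p = 9.75e-08, limma). Both had ranges that were apart. On high fat diet it was 0.78 ± 0.35 and did not pass (adjusted p = 0.491, limma), nor did the value of 1.06 without replicate 87 (adjusted p = 0.102, limma).

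The sum of brown adipocyte markers was for the most part higher in the iWAT groups with more Elovl3. The summed RPKM of 8 such markers, Ucp1 among them and all measured, had medians of 681, 148 and 80.7 in wildtype iWAT at 20 °C, at 30 °C and with high fat feeding. The medians of UCP1(-/-) iWAT were 1794, 578 and 121. Not every marker followed the sum, which rests on its most abundant genes. Lhx8 had means of 1.03 RPKM in UCP1(-/-) iWAT at 20 °C and 2.68 RPKM in wildtype iWAT at 30 °C. Zic1, near 0 in iWAT, had 0.0149 and 0.0442 RPKM, and the other listed markers were higher in the first of these groups. In iBAT the sums did not have the order of Elovl3, with medians of 8323, 11600 and 9933 in wildtype and 5037, 3119 and 2425 in UCP1(-/-) mice. Without Ucp1 the iBAT medians were 4056, 3350 and 3294 in wildtype and 4035, 2388 and 1606 in UCP1(-/-) mice, highest at 20 °C and lowest on high fat diet as for Elovl3, but not higher in UCP1(-/-) mice. More brown-like cells in the depot and more RNA per cell cannot be told apart in whole-tissue libraries, and the part of the markers in the Elovl3 result was not tested.

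Elovl6, which lengthens palmitate to stearate and stands directly downstream of fatty acid synthase, was the other member with a wide range. Wildtype iBAT had 215, 269 and 313 RPKM at 20 °C as the lowest, median and highest library, 101, 122 and 167 RPKM at 30 °C and 44.0, 60.3 and 75.5 RPKM on high fat diet. UCP1(-/-) iBAT had 147, 203 and 297 RPKM, 51.8, 66.2 and 112 RPKM, and 17.3, 32.4 and 53.3 RPKM in the same order. Within wildtype iBAT the 3 conditions did not overlap, and each UCP1(-/-) group overlapped its wildtype counterpart from below. The means were 273 ± 33.7, 124 ± 22.9 and 59.6 ± 9.78 RPKM in wildtype and 212 ± 51.2, 71.4 ± 18.3 and 32.3 ± 10.4 RPKM in UCP1(-/-) iBAT.

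In iWAT, Elovl6 covered a still larger range. Wildtype libraries had 45.2, 91.2 and 146 RPKM at 20 °C, 7.20, 11.0 and 27.3 RPKM at 30 °C and 2.29, 4.28 and 24.3 RPKM on high fat diet. UCP1(-/-) libraries had 154, 324 and 415 RPKM, 23.3, 58.5 and 76.4 RPKM, and 1.98, 4.06 and 7.03 RPKM. The UCP1(-/-) libraries at 20 °C lay above all other iWAT libraries, and on high fat diet the genotypes overlapped. The means were 92.1 ± 32.5, 14.1 ± 7.57 and 6.49 ± 7.24 RPKM in wildtype and 312 ± 87.6, 56.5 ± 17.2 and 4.39 ± 1.73 RPKM in UCP1(-/-) iWAT.

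Temperature moved Elovl6 with ranges apart in all 4 comparisons. At 20 °C it was higher by 1.15 ± 0.15 in wildtype iBAT (adjusted p = 3.19e-08, limma), 1.56 ± 0.15 in UCP1(-/-) iBAT (adjusted p = 2.1e-12, limma), 2.70 ± 0.30 in wildtype iWAT (adjusted p = 1.94e-08, limma) and 2.46 ± 0.30 in UCP1(-/-) iWAT (adjusted p = 8.88e-09, limma). The rise in iWAT exceeded that in iBAT in wildtype mice, with an iBAT minus iWAT difference of −1.55 ± 0.34 (adjusted p = 0.000416, limma). The same difference in UCP1(-/-) mice was −0.90 ± 0.34 (adjusted p = 0.0402, limma), a call that 4 alternatives ended: a pseudocount of 0.1 (0.0523), no filter (0.0619), median-ratio scaling (0.118) and leaving out replicate 30 (0.0724). Genotype differed in the response of iBAT by 0.41 ± 0.21 (adjusted p = 0.103, limma), which passed with median-ratio scaling (0.66, adjusted p = 0.0163), with quantile normalization (0.62, adjusted p = 0.026) and without replicate 30 (0.51, adjusted p = 0.0338).

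Diet lowered Elovl6 in all 4 comparisons. In iBAT the differences were −1.04 ± 0.15 in wildtype and −1.15 ± 0.15 in UCP1(-/-) mice (adjusted p = 7.27e-07 and 4.21e-07, limma), and these differed by −0.11 ± 0.21 (adjusted p = 0.809, limma). In iWAT the fall was −1.18 ± 0.30 in wildtype and −3.41 ± 0.30 in UCP1(-/-) mice (adjusted p = 0.00524 and 1.87e-11, limma). These differed by −2.23 ± 0.42 (adjusted p = 0.00424, limma), and by −1.93 (adjusted p = 0.00462) without replicate 87. That wildtype library on high fat diet had 24.3 RPKM of Elovl6, where the others had 2.29 to 4.98 RPKM.

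Genotype moved Elovl6 in opposite directions in the 2 depots. In iBAT it was lower in UCP1(-/-) mice, by −0.39 ± 0.15 at 20 °C (adjusted p = 0.0371, limma), −0.80 ± 0.15 at 30 °C (adjusted p = 1.14e-05, limma) and −0.91 ± 0.15 on high fat diet (adjusted p = 1.34e-06, limma). The call at 20 °C was lost without the filter (adjusted p = 0.0589), with quantile normalization (0.0544) and with summed transcript rows (0.0693). In iWAT it was higher in UCP1(-/-) mice, by 1.77 ± 0.30 at 20 °C (adjusted p = 3.58e-06, limma) and 2.01 ± 0.30 at 30 °C (adjusted p = 4.3e-06, limma). On high fat diet the value in iWAT was −0.22 ± 0.30 (adjusted p = 0.95, limma). The interaction of tissue and genotype itself was not tested.

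**Figure D2:**
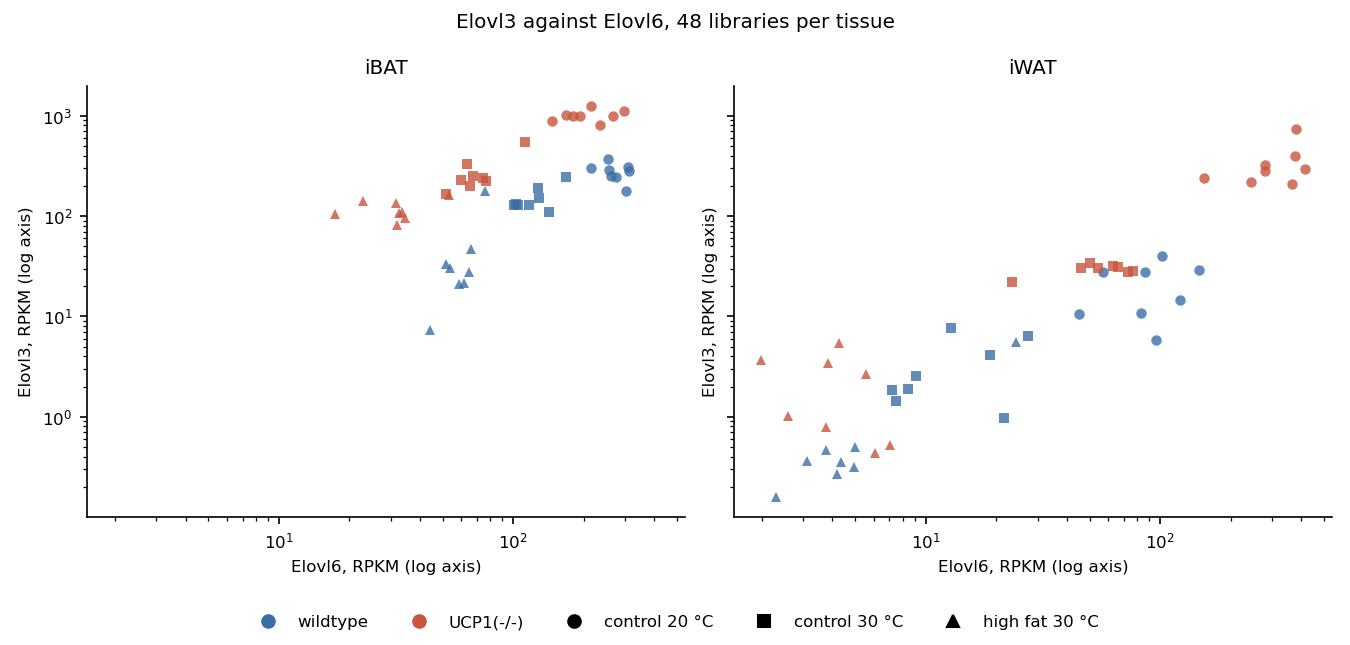
Elovl3 against Elovl6 in RPKM on log axes, 1 point for each of the 96 libraries, coloured by genotype, with a shape for each condition and a panel for each tissue. In iBAT the UCP1(-/-) libraries lie at more Elovl3 for the same Elovl6 than wildtype libraries, and in iWAT both genes run from the low values of the high fat groups to the high values of UCP1(-/-) mice at 20 °C.

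The balance of Elovl3 and Elovl6 within a library, examined after the values were seen and so given with no test, differed between the genotypes in iBAT. The ratio of Elovl3 to Elovl6 ran from 0.581 to 1.46 in wildtype and from 3.46 to 6.03 in UCP1(-/-) iBAT at 20 °C, and from 0.782 to 1.50 and from 2.91 to 5.12 at 30 °C. On high fat diet it ran from 0.167 to 2.33 and from 2.52 to 6.17. No library of one genotype reached into the range of the other within a condition. In iWAT the mean ratio was 0.243 ± 0.147, 0.257 ± 0.155 and 0.106 ± 0.0552 in wildtype and 1.11 ± 0.451, 0.571 ± 0.190 and 0.654 ± 0.634 in UCP1(-/-) mice, with the ranges apart at 20 °C and overlapping in the other conditions.

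Elovl3 and Elovl6 together made up most elongase RNA in iBAT and in the cold. The summed RPKM of the 7 genes was 608 ± 55.6 in wildtype and 1279 ± 159 in UCP1(-/-) iBAT at 20 °C, and 158 ± 62.3 and 212 ± 30.4 on high fat diet. Elovl3 held 45.5% of that sum in wildtype and 78.8% in UCP1(-/-) iBAT at 20 °C, and Elovl6 held 45.2% and 16.6%. Such shares, and the ratios above, depend on the transcript row taken for each gene. The RefSeq row of Elovl3 had 0.661 times the mean of the row used, while for Elovl6 the RefSeq row was the row used. In iWAT the sum was 191 ± 37.0 and 720 ± 235 at 20 °C, 87.9 ± 13.5 and 156 ± 24.2 at 30 °C, and 81.7 ± 8.63 and 78.3 ± 3.73 on high fat diet. There Elovl3 held 10.5% and 45.8% at 20 °C but 1.08% and 2.83% on high fat diet, where Elovl5 and Elovl1 led.

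**Figure D3:**
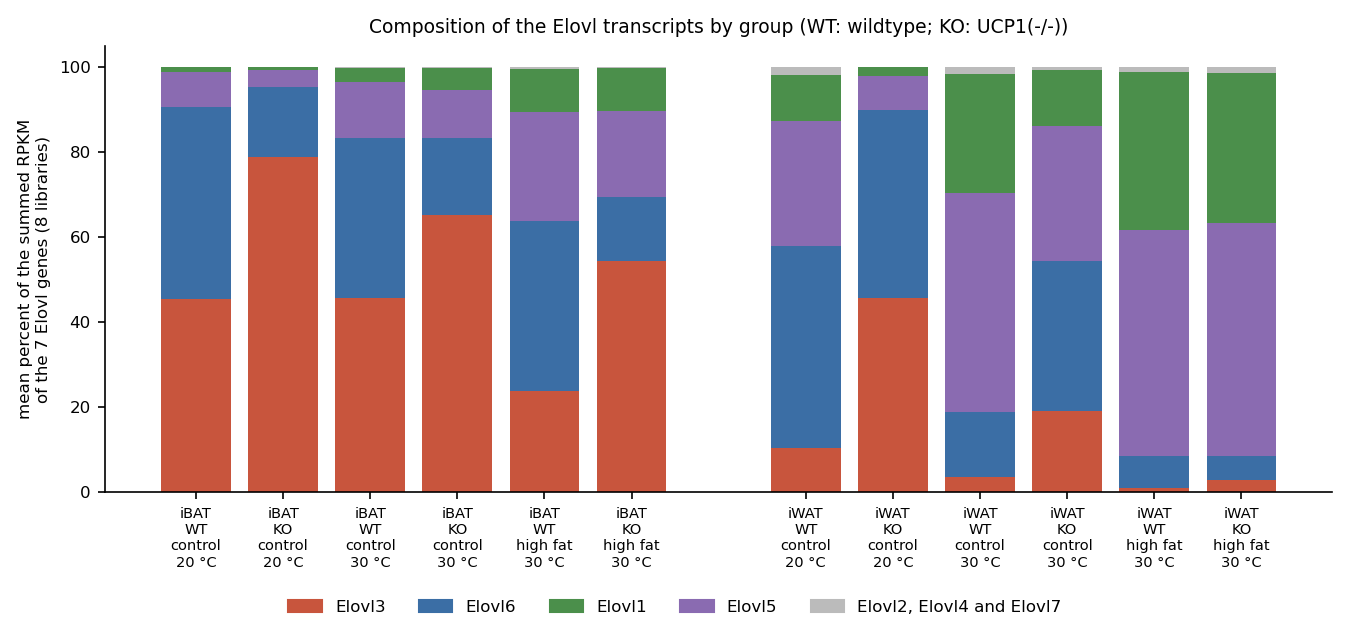
Mean share of each elongase in the summed RPKM of the family, in percent, for the 12 groups as stacked bars that reach 100. Elovl3 takes 78.8% in UCP1(-/-) iBAT at 20 °C and Elovl5 takes 53.2% and 54.8% in wildtype and UCP1(-/-) iWAT on high fat diet.

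Elovl1, which makes saturated and monounsaturated very long chains for sphingolipids, moved against Elovl6. In wildtype iBAT the lowest, median and highest libraries had 5.61, 6.27 and 7.51 RPKM at 20 °C, 9.03, 10.4 and 11.9 RPKM at 30 °C and 10.3, 13.4 and 17.3 RPKM on high fat diet. Libraries of UCP1(-/-) iBAT had 5.85, 8.08 and 11.8 RPKM, 13.1, 19.3 and 23.1 RPKM, and 16.8, 21.2 and 24.3 RPKM. The libraries at 20 °C were the lowest of each genotype, with no overlap with 30 °C. In iWAT the values were 18.4, 19.9 and 21.3 RPKM, 22.0, 23.6 and 27.8 RPKM, and 24.0, 30.9 and 33.4 RPKM in wildtype mice, in the same order of conditions. UCP1(-/-) iWAT had 10.8, 12.8 and 16.4 RPKM, 16.7, 20.6 and 23.7 RPKM, and 24.0, 27.6 and 31.6 RPKM. There too the libraries at 20 °C lay below those at 30 °C of the same genotype.

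Elovl1 was lower at 20 °C, with differences of −0.61 ± 0.11 and −1.12 ± 0.11 in wildtype and UCP1(-/-) iBAT and −0.27 ± 0.07 and −0.61 ± 0.07 in iWAT (adjusted p = 9.59e-06, 1.86e-12, 0.00583 and 2.87e-09, limma). Under median-ratio scaling these were −0.47, −0.73, −0.18 and −0.28, and under quantile normalization −0.43, −0.73, −0.23 and −0.35, all 4 still called. The fall was larger in UCP1(-/-) than in wildtype mice by −0.51 ± 0.15 in iBAT (adjusted p = 0.00479, limma) and by −0.34 ± 0.10 in iWAT (adjusted p = 0.0221, limma). Neither of these held under the other scalings, with −0.26 and −0.30 in iBAT (adjusted p = 0.0867 and 0.0719) and −0.10 and −0.12 in iWAT (adjusted p = 0.564 and 0.494). High fat diet raised Elovl1 by 0.39 ± 0.11 in wildtype iBAT, 0.29 ± 0.07 in wildtype iWAT and 0.43 ± 0.07 in UCP1(-/-) iWAT (adjusted p = 0.0046, 0.00361 and 1.09e-05, limma). The value in UCP1(-/-) iBAT was 0.13 ± 0.11 (adjusted p = 0.45, limma).

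Between genotypes Elovl1 was higher in UCP1(-/-) iBAT, by 0.30 ± 0.11 at 20 °C, 0.82 ± 0.11 at 30 °C and 0.56 ± 0.11 with high fat feeding (adjusted p = 0.0223, 1.17e-08 and 1.82e-05, limma). Under median-ratio scaling these were 0.24, 0.50 and 0.26, all called, and under quantile normalization 0.21 (adjusted p = 0.081), 0.51 and 0.27. In iWAT it was lower in UCP1(-/-) mice at 20 °C by −0.59 ± 0.07 (adjusted p = 6.4e-09, limma) and at 30 °C by −0.25 ± 0.07 (adjusted p = 0.0114, limma). Median-ratio scaling gave −0.24, still called, and −0.14 (adjusted p = 0.102), and quantile normalization −0.32 and −0.20, both called. On high fat diet the difference in iWAT was −0.11 ± 0.07 (adjusted p = 0.728, limma). Elovl6 had the opposite sign to Elovl1 in each of these 5 called comparisons.

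Macrophage and endothelial markers moved with Elovl1 in part. The summed RPKM of 8 macrophage markers, all of them measured, had medians of 49.9, 115 and 106 in wildtype iBAT at 20 °C, at 30 °C and with high fat feeding, and of 164, 1076 and 601 in UCP1(-/-) iBAT. Their range in UCP1(-/-) iBAT at 30 °C was 237 to 1523. In iWAT the medians were 583, 887 and 728 in wildtype and 343, 516 and 738 in UCP1(-/-) mice. Within a genotype and tissue these sums were lower at 20 °C than at 30 °C, as Elovl1 was, but on high fat diet they were lower than on control diet in 3 of 4 comparisons, where Elovl1 was higher. The summed RPKM of 6 endothelial markers, all measured, had medians in the same order of conditions of 158, 257 and 426 in wildtype iBAT, 190, 350 and 402 in UCP1(-/-) iBAT, 221, 264 and 337 in wildtype iWAT and 188, 248 and 289 in UCP1(-/-) iWAT. In all 4 the lowest median was at 20 °C and the highest on high fat diet, as for Elovl1. Between genotypes the endothelial medians moved as Elovl1 did except in iBAT on high fat diet, where UCP1(-/-) mice had less. Between depots they were lower in iBAT, as Elovl1 was, only in wildtype mice on control diet. In the other groups they were higher in iBAT, where the mean of Elovl1 was lower. The part of either cell type in the Elovl1 result was not tested.

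Elovl5, the elongase of polyunsaturated chains, stayed between 31.8 and 75.4 RPKM over the 96 libraries. In iBAT its group means ran from 37.5 ± 4.08 RPKM in wildtype iBAT on high fat diet to 49.9 ± 6.84 RPKM in wildtype iBAT at 20 °C. Those of iWAT ran from 42.8 ± 4.00 RPKM in UCP1(-/-) mice on high fat diet to 55.7 ± 10.4 RPKM in UCP1(-/-) mice at 20 °C. The lowest, median and highest libraries at 20 °C were 37.7, 51.6 and 56.3 RPKM in wildtype iBAT and 44.9, 53.4 and 69.3 RPKM in wildtype iWAT. At 30 °C they were 35.7, 41.4 and 51.7 RPKM and 40.9, 43.7 and 51.7 RPKM. The 2 temperatures overlapped in both tissues.

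Elovl5 was higher at 20 °C in wildtype mice by 0.22 ± 0.08 in iBAT (adjusted p = 0.0233, limma, and 0.39 with median-ratio scaling) and 0.28 ± 0.09 in iWAT (adjusted p = 0.0202, limma). The call in iBAT was lost with summed rows (0.17, adjusted p = 0.0648), with only the groups compared in the fit (adjusted p = 0.0566) and with the RefSeq transcript row (0.16, adjusted p = 0.0992). The differences in UCP1(-/-) mice were 0.17 ± 0.08 in iBAT (adjusted p = 0.0642, limma) and 0.17 ± 0.09 in iWAT (adjusted p = 0.0799, limma). These passed under median-ratio scaling (0.58 and 0.52) and quantile normalization (0.36 and 0.29). No comparison of diet or genotype was called for Elovl5, but 5 of them were in at least 1 alternative. For UCP1(-/-) minus wildtype, the value of 0.04 in iBAT at 30 °C became −0.29 with median-ratio scaling (adjusted p = 0.00467), and that of 0.01 in iWAT at 20 °C became 0.38 (adjusted p = 0.000658). On high fat diet the 0.17 in iBAT passed with only the groups compared in the fit (adjusted p = 0.024), and was −0.13 and −0.09 under the other scalings. For diet, the −0.18 in UCP1(-/-) iWAT became −0.27 and −0.23 under the other scalings (adjusted p = 0.0293 and 0.0224). The −0.18 in wildtype iBAT became −0.21 with summed rows (adjusted p = 0.0341).

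**Figure D4:**
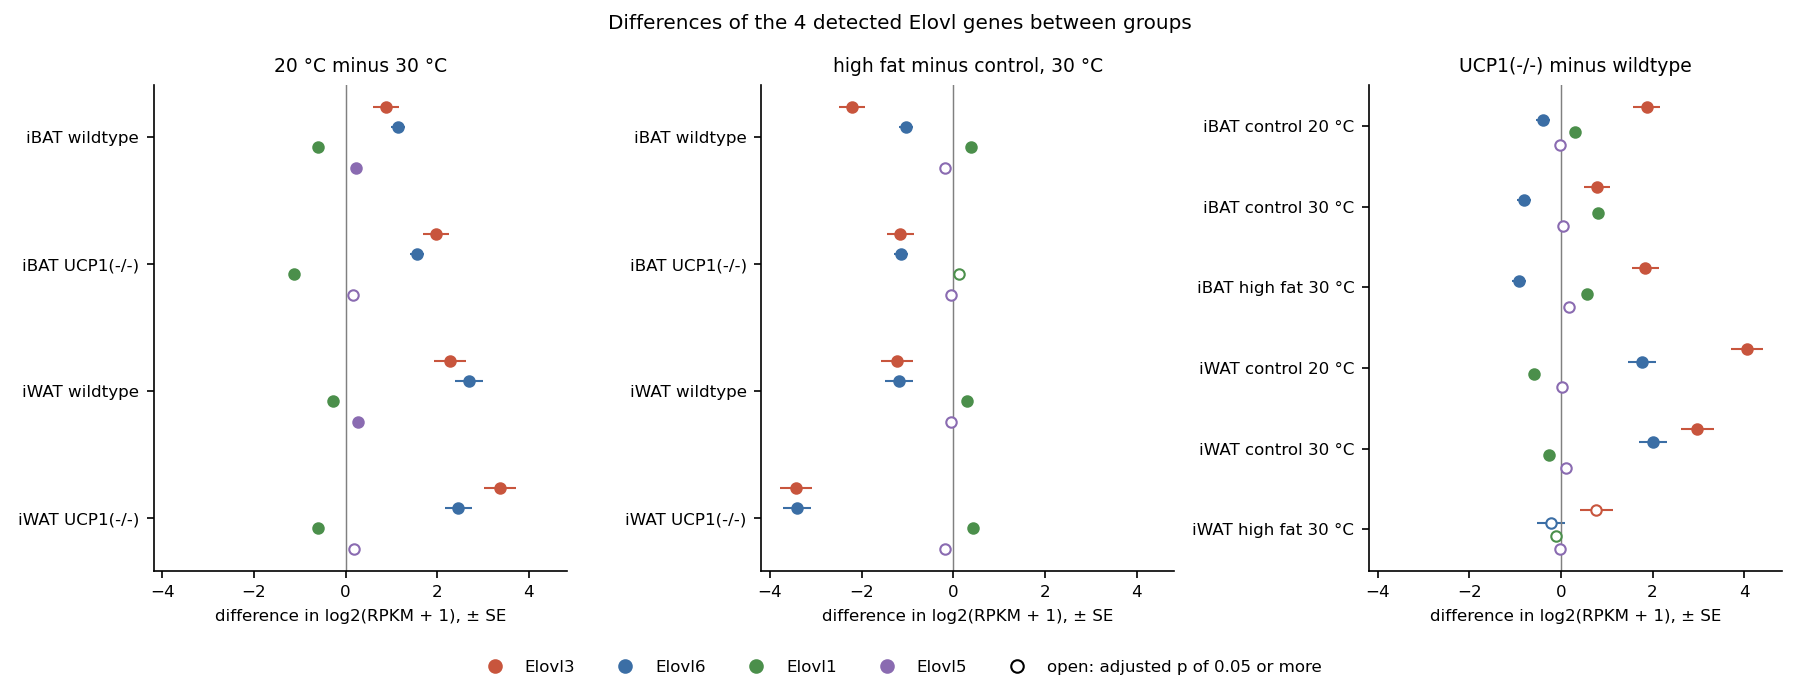
Differences in log2(RPKM + 1) with their standard error for Elovl1, Elovl3, Elovl5 and Elovl6 in the comparisons of temperature, diet and genotype, 1 panel each, with filled points for adjusted p-values under 0.05. Elovl3 and Elovl6 lie to the right at 20 °C and to the left on high fat diet, Elovl1 lies on the other side in temperature, and Elovl5 stays near 0.

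The remaining members, Elovl2, Elovl4 and Elovl7, were near the detection limit. The median library held 5 reads of Elovl2, 6 of Elovl4 and 8 of Elovl7. Elovl2, an elongase of long polyunsaturated chains best known from liver, had a median of 0.0847 RPKM in iBAT and 0.132 RPKM in iWAT. Elovl4, best known from retina, brain and skin, had medians of 0.231 and 0.0942 RPKM. Elovl7, which lengthens saturated chains, had medians of 0.296 and 0.419 RPKM. Elovl2 reached 0.5 RPKM in 2 of 48 iBAT libraries and Elovl4 in 2 of 48 iWAT libraries, fewer than the 8 needed to be tested there, and neither had a call in those tissues in a fit without that filter. Elovl4 reached it in 9 iBAT libraries, 4 of them UCP1(-/-) at 20 °C and 5 wildtype on high fat diet. Elovl7 reached it in 10 iBAT libraries, 7 of them wildtype at 30 °C. Both thus entered the iBAT fit through the groups in which they were high, so their calls there describe these groups and support nothing further.

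The values of Elovl7 in wildtype iBAT are given as description, since 7 of the 10 libraries that let it into the fit were wildtype at 30 °C. It had 0 to 2 reads at 20 °C (0 to 0.118 RPKM) and 8 to 20 reads at 30 °C (0.478 to 0.983 RPKM), with no overlap. High fat diet gave 0 to 13 reads (0 to 0.535 RPKM). Elovl7 changed by −0.69 ± 0.08 with cold (adjusted p = 9.31e-10, limma) and by −0.48 ± 0.08 with high fat diet (adjusted p = 4.89e-06, limma). In UCP1(-/-) iBAT the means were 0.287 ± 0.227, 0.376 ± 0.0887 and 0.247 ± 0.0938 RPKM at 20 °C, at 30 °C and with high fat feeding, and neither change was called. The effect of temperature differed between genotypes by 0.58 ± 0.11 (adjusted p = 3.18e-05, limma). The gene was higher in UCP1(-/-) iBAT at 20 °C, by 0.26 ± 0.08 (adjusted p = 0.00719, limma), and lower at 30 °C, by −0.32 ± 0.08 (adjusted p = 0.000408, limma), the latter at −0.10 with the RefSeq transcript row (adjusted p = 0.0983). The size of the cold effect rested on the transcript rows used: −0.34 with the RefSeq row and −1.63 with summed rows, both called. In iWAT all 6 groups overlapped and no difference of condition or genotype was called. For UCP1(-/-) minus wildtype iWAT at 20 °C the value was −0.22 ± 0.11 (adjusted p = 0.0709, limma), and it passed in 4 alternatives: a pseudocount of 0.1 (−0.67, adjusted p = 0.029), summed rows (−0.52, adjusted p = 0.0234), only the groups compared (adjusted p = 0.0205) and the RefSeq row (adjusted p = 0.00208). At 30 °C it was −0.23 ± 0.11 (adjusted p = 0.113, limma, and 0.0359 with only the groups compared). Elovl7 entered the iWAT fit with 17 of 48 libraries at 0.5 RPKM. Among these were 3 wildtype and 0 UCP1(-/-) libraries at 20 °C, and 6 and 1 at 30 °C. These genotype values in iWAT, with their alternatives, are thus description only.

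Elovl4 in iBAT is likewise given as description, since the 9 libraries that let it in were UCP1(-/-) at 20 °C or wildtype on high fat diet. UCP1(-/-) iBAT had 0.238 to 1.64 RPKM at 20 °C (8 to 56 reads) and wildtype iBAT 0.0727 to 0.244 RPKM (2 to 8 reads), with an overlap at the edge. The difference was 0.45 ± 0.095 (adjusted p = 0.00016, limma), and UCP1(-/-) iBAT at 20 °C also exceeded that at 30 °C by 0.43 ± 0.095 (adjusted p = 0.000102, limma). At 30 °C on control diet the genotypes differed by −0.11 ± 0.095 (adjusted p = 0.293, limma), or −0.29 with quantile normalization (adjusted p = 0.0191). On high fat diet the level was 0.541 ± 0.233 RPKM in wildtype and 0.137 ± 0.0763 RPKM in UCP1(-/-) iBAT, a difference of −0.43 ± 0.095 (adjusted p = 0.000144, limma). The temperature effect differed between the genotypes by 0.56 ± 0.13 (adjusted p = 0.000515, limma), and the diet effect by −0.31 ± 0.13, which did not pass (adjusted p = 0.162, limma). Elovl2 had no call for temperature, diet or genotype, and its mean of 2.83 RPKM in wildtype iWAT at 20 °C rested on replicate 54 at 17.5 RPKM, with a group median of 0.106 RPKM.

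**Figure D5:**
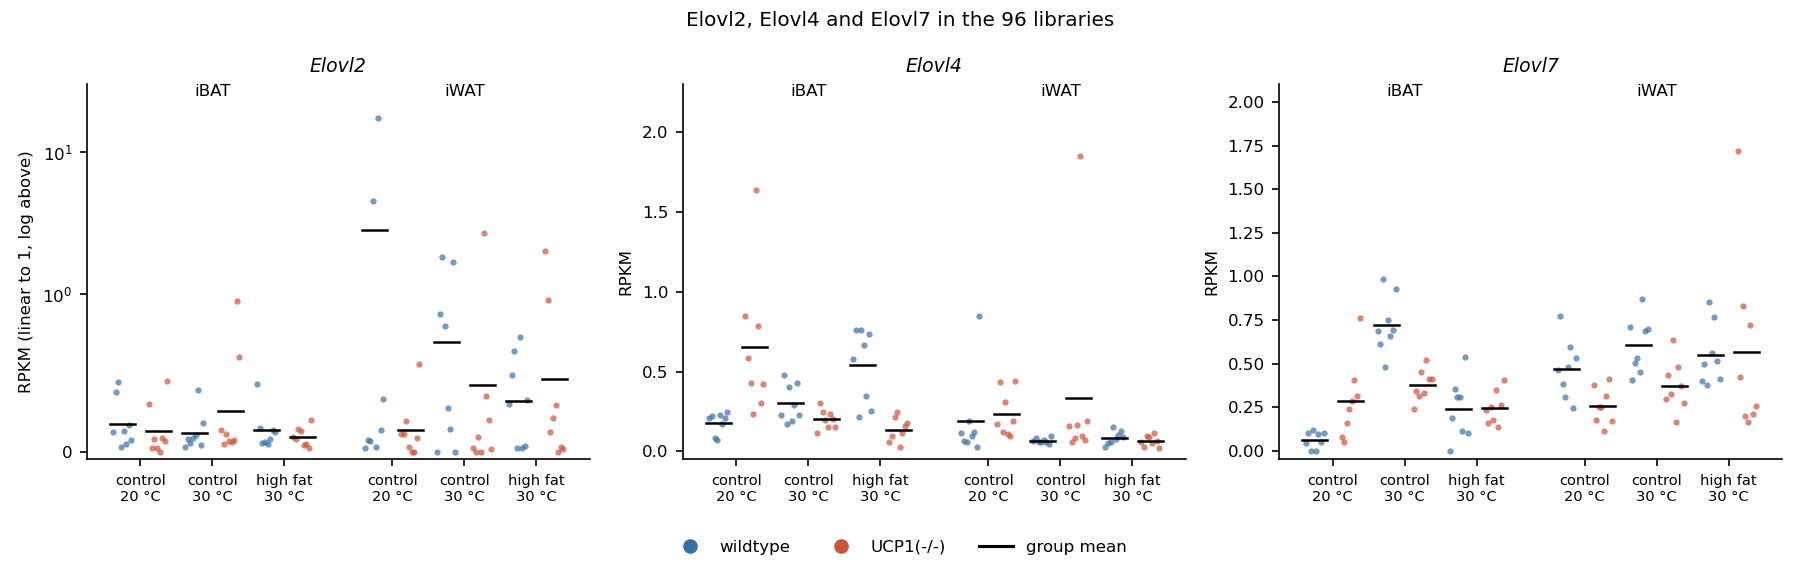
RPKM of Elovl2, Elovl4 and Elovl7 in the 96 libraries by group, with a bar at the group mean (the Elovl2 axis is linear up to 1 and logarithmic above, the others are linear). Most libraries lie below 1 RPKM, and Elovl7 in wildtype iBAT runs from 0 to 0.118 RPKM at 20 °C and from 0.478 to 0.983 RPKM at 30 °C.

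Counted over the family, the calls can be read against those of all genes. The shares in parentheses are those of all tested genes that were called higher and called lower. At 20 °C against 30 °C, 3 of 6 tested members were higher and 2 lower in wildtype iBAT (11.6% and 33.0% of all genes). The counts were 3 and 1 in UCP1(-/-) iBAT (13.9% and 59.5%), 3 and 1 in wildtype iWAT (7.25% and 12.4%) and 2 and 1 in UCP1(-/-) iWAT (9.02% and 51.4%). With high fat diet 1 member was higher and 3 lower in wildtype iBAT (18.5% and 14.5%), and 0 and 2 in UCP1(-/-) iBAT (8.35% and 8.02%). In iWAT diet gave 1 and 2 in wildtype mice (9.69% and 3.84%) and 1 and 2 in UCP1(-/-) mice (16.1% and 8.31%). Higher calls at 20 °C and lower calls on high fat diet were a larger share of the members than of all genes, also with Elovl2, Elovl4 and Elovl7 set aside. These calls were then only those of Elovl3 and Elovl6, and of Elovl5 at 20 °C in wildtype mice. They thus describe these genes and not the family as a whole.

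Between genotypes 4 members were higher and 1 lower in UCP1(-/-) iBAT at 20 °C (24.7% and 13.1%), 2 and 2 at 30 °C (54.2% and 10.5%) and 2 and 2 on high fat diet (52.8% and 11.0%). Elovl4 and Elovl7 were among the higher at 20 °C, Elovl7 among the lower at 30 °C and Elovl4 among the lower on high fat diet. Both entered the iBAT fit through groups in which they were high. With them set aside the calls in iBAT were those of Elovl1, Elovl3 and Elovl6. In iWAT the counts were 2 and 1 at 20 °C (9.85% and 55.0%), 2 and 1 at 30 °C (7.54% and 16.2%) and 0 and 0 on high fat diet (0.195% and 0.0881%).

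Differences between effects were called as follows. For genotype and temperature 3 members were higher and 1 lower in iBAT (11.9% and 40.5% of all genes) and 0 and 1 in iWAT (2.15% and 11.1%). With Elovl4 and Elovl7 set aside, only Elovl3 was higher in iBAT. For genotype and diet 0 of 6 were called in iBAT (2.78% and 3.78%), and 0 were higher and 2 lower in iWAT (0.101% and 1.23%). For tissue and temperature 0 of 7 were higher and 3 lower in wildtype mice (5.07% and 11.7%), and 1 was higher and 3 lower in UCP1(-/-) mice (6.70% and 18.8%). Elovl7 was among the lower in wildtype mice, and the member higher in UCP1(-/-) mice was Elovl4. In iWAT, Elovl3 and Elovl6 were thus among 212 genes of 15897 whose response to diet differed between genotypes. Over all genes, 22.7% of the calls for genotype and temperature were higher in iBAT and 16.2% in iWAT, against 46.8% and 84.1% under median-ratio scaling. The members had 14 calls over all interaction tests, those of genotype and diet and of tissue and temperature included. Of these 28.6% were higher, against 42.9% with either other scaling, a share not to be set against those for genotype and temperature alone.

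Between the depots, Elovl3 was higher in iBAT in every genotype and condition, with ranges apart. The difference was 3.88, 5.28 and 4.29 (each ± 0.33) in wildtype mice at 20 °C, at 30 °C and with high fat feeding and 1.68, 3.08 and 5.36 in UCP1(-/-) mice (largest adjusted p = 5.53e-06, limma). Elovl6 was higher in wildtype iBAT by 1.63, 3.18 and 3.33 (each ± 0.24, largest adjusted p = 3.21e-09, limma). For UCP1(-/-) mice it was lower in iBAT by −0.53 at 20 °C (adjusted p = 0.0492, limma), a call lost in 4 alternatives (−0.32 with median-ratio scaling, but −0.80 with quantile normalization), it stood at 0.37 at 30 °C (adjusted p = 0.174, limma) and it was higher by 2.63 on high fat diet (adjusted p = 7.63e-17, limma). Elovl1 was lower in iBAT by −1.49, −1.16 and −1.06 in wildtype mice (largest adjusted p = 1.77e-18, limma), and by −0.60, −0.09 and −0.39 in UCP1(-/-) mice, of which the middle value did not pass (adjusted p = 0.4, limma). Median-ratio scaling gave −0.98, −0.67 and −0.58 in wildtype and −0.41, −0.05 and −0.25 in UCP1(-/-) mice, with the same calls. The response of Elovl1 to temperature differed between the depots of UCP1(-/-) mice by −0.51 ± 0.13 (adjusted p = 0.00161, limma), or −0.29 with quantile normalization (adjusted p = 0.0424). In wildtype mice it differed by −0.34 ± 0.13 (adjusted p = 0.0608, limma), or −0.15 with quantile normalization. This passed with median-ratio scaling (−0.31, adjusted p = 0.0374), a pseudocount of 0.1 (0.0361), summed rows (0.0383) and only the groups compared (0.00483).

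The direction of Elovl5 between the depots turned with the scaling: −0.13, −0.08 and −0.21 in wildtype mice (the last with adjusted p = 0.0209, limma) became 0.43, 0.43 and 0.29 with median-ratio scaling. The values in UCP1(-/-) mice were −0.17, −0.16 and −0.02, none of them called. With quantile normalization −0.27 at 20 °C and −0.30 at 30 °C were called there (adjusted p = 0.00245 and 0.00071, limma). Elovl4 was higher in iBAT of wildtype mice at 30 °C (0.28 ± 0.11, adjusted p = 0.0123, limma) and on high fat diet (0.49 ± 0.11, adjusted p = 2.65e-05, limma), both with ranges apart. It was also higher in iBAT of UCP1(-/-) mice at 20 °C (0.39 ± 0.11, adjusted p = 0.00102, limma). Elovl4 entered the fit of both tissues with 11 of 96 libraries at 0.5 RPKM. Of these, 9 were iBAT, from UCP1(-/-) mice at 20 °C or wildtype mice on high fat diet. Its depot calls in these groups thus describe them and support nothing further. Elovl7 was lower in iBAT of wildtype mice at 20 °C, with ranges apart (−0.46 ± 0.09, adjusted p = 8.15e-06, limma), and on high fat diet (−0.33 ± 0.09, adjusted p = 0.00128, limma). Neither held with quantile normalization, which gave −0.10 (adjusted p = 0.287) and 0.07 (adjusted p = 0.505). At 30 °C its value of 0.10 (adjusted p = 0.316, limma) became 0.30 and 0.67 under the other scalings (adjusted p = 0.00169 and 1.63e-10). Elovl7 entered the fit of both tissues with 27 of 96 libraries at 0.5 RPKM, 17 of them iWAT. In wildtype mice these were 3 iWAT and 0 iBAT libraries at 20 °C, and 4 and 1 on high fat diet. Its depot calls in these groups are thus likewise description only.

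Over the 7 members, 2 were higher and 3 lower in iBAT of wildtype mice at 20 °C (15.8% and 64.4% of all genes), 3 and 1 at 30 °C (19.5% and 61.8%) and 3 and 3 on high fat diet (16.7% and 61.9%). The counts in UCP1(-/-) mice were 2 and 2 (20.2% and 42.7%), 1 and 0 (26.3% and 35.8%) and 2 and 2 (24.5% and 45.0%). Calls of Elovl2, Elovl4 and Elovl7, near the detection limit, are among these counts. Of all genes called in wildtype mice 19.8%, 24.0% and 21.2% were higher in iBAT, which median-ratio scaling made 45.8%, 44.5% and 45.2%. Of these 24 calls 54.2% were higher in iBAT (65.4% under median-ratio scaling and 66.7% under quantile normalization). Calls of Elovl2 in wildtype mice at 20 °C (−0.72, adjusted p = 0.0147) and of Elovl7 in UCP1(-/-) mice on high fat diet (−0.27, adjusted p = 0.00845) rested on 1 library each: without replicate 54 the first was −0.26 (adjusted p = 0.268), and without replicate 89 the second was −0.15 (adjusted p = 0.11, all limma).

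The enzymes that supply the elongases moved with Elovl6 in temperature. Of 8 genes that make or consume malonyl-CoA and its precursors, 7 rose at 20 °C in wildtype iBAT and 8 in each of UCP1(-/-) iBAT, wildtype iWAT and UCP1(-/-) iWAT, and none fell, the same counts as under both other scalings. The median of the list was 1.78, 1.43, 1.96 and 1.39, against −0.12, −0.34, −0.10 and −0.25 over all genes tested. Of all genes, 11.6% were called higher and 33.0% lower in wildtype iBAT, and 13.9% and 59.5% in UCP1(-/-) iBAT. For iWAT these shares were 7.25% and 12.4% in wildtype and 9.02% and 51.4% in UCP1(-/-) mice. Acly, which makes cytosolic acetyl-CoA from citrate, rose by 2.96 ± 0.27 from 57.0 to 480 RPKM in wildtype iBAT (adjusted p = 2.38e-12, limma) and by 2.37 ± 0.26 from 57.4 to 322 RPKM in wildtype iWAT (adjusted p = 1.94e-08, limma). Acaca, the carboxylase that makes malonyl-CoA, rose by 2.20 ± 0.23 in wildtype iBAT (adjusted p = 1.48e-10, limma) and by 1.35 ± 0.22 in UCP1(-/-) iWAT (adjusted p = 2.32e-06, limma).

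Diet and genotype also moved these genes. High fat diet lowered 5 of 8 in iBAT of either genotype, 4 in wildtype iWAT and all 8 in UCP1(-/-) iWAT, where Fasn fell from 1162 to 172 RPKM (−2.81 ± 0.30, adjusted p = 1.99e-09, limma). Over all genes tested, diet lowered 14.5% and 8.02% in wildtype and UCP1(-/-) iBAT, and 3.84% and 8.31% in iWAT. UCP1(-/-) iWAT had 7 of 8 higher at 20 °C and 8 of 8 at 30 °C (8 and 8 under median-ratio scaling, 5 and 7 under quantile normalization), and 0 of 8 called on high fat diet. The shares of all genes called higher there were 9.85%, 7.54% and 0.195%, with 55.0%, 16.2% and 0.0881% lower. In iBAT the genotype comparison gave 1 higher and 3 lower at 20 °C (24.7% and 13.1% of all genes). It gave 1 and 2 at 30 °C (54.2% and 10.5%) and 2 and 2 on high fat diet (52.8% and 11.0%). Acaca was lower in UCP1(-/-) iBAT at 20 °C (−1.09 ± 0.23, adjusted p = 0.000164, limma), as was Fasn (−0.98 ± 0.30, adjusted p = 0.0071, limma).

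The other enzymes of the elongation cycle followed only in part. Of 7 listed genes 6 were tested. Hsd17b12, the 3-ketoacyl-CoA reductase, was higher at 20 °C by 0.42 ± 0.08 and 0.41 ± 0.08 in wildtype and UCP1(-/-) iBAT and by 0.87 ± 0.13 and 0.89 ± 0.13 in iWAT (largest adjusted p = 4.73e-05, limma). Tecr, the enoyl-CoA reductase that closes the cycle, was higher by 0.73 ± 0.10, 0.72 ± 0.10, 0.82 ± 0.11 and 0.71 ± 0.11 (largest adjusted p = 9.5e-07, limma). None of the 3-hydroxyacyl-CoA dehydratases, listed in the file under older symbols (Ptpla, Ptplb, Ptplad1 and Ptplad2), was higher at 20 °C. Of these, Ptpla was lower in wildtype iBAT (−0.48 ± 0.13, adjusted p = 0.00176, limma) and Ptplad1 in UCP1(-/-) iBAT and iWAT (−0.66 ± 0.08 and −0.39 ± 0.08, adjusted p = 6.51e-10 and 7.99e-05, limma), the call in iWAT being lost under both other scalings. The list's median was 0.01, −0.25, −0.03 and −0.14 in the 4 temperature comparisons, and −0.12, −0.34, −0.10 and −0.25 over all genes tested.

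Desaturases, which put double bonds into the elongated chains, were tested for 7 of 8 listed genes. Scd2 rose at 20 °C by 2.43 ± 0.20 in wildtype iBAT, from 6.99 to 43.3 RPKM (adjusted p = 1.33e-13, limma), and Scd1 by 1.17 ± 0.15 in wildtype iWAT, from 5180 to 11620 RPKM (adjusted p = 2.52e-07, limma). Scd3 rose in UCP1(-/-) mice, by 4.53 ± 0.25 in iBAT (0.783 to 45.2 RPKM, adjusted p = 7.37e-20, limma) and by 2.38 ± 0.17 in iWAT (0.520 to 7.60 RPKM, adjusted p = 3.25e-15, limma). The Scd genes are close copies of each other, so reads may be split between them. Over the list, 1 rose and 1 fell in wildtype iBAT (11.6% and 33.0% of all genes), and 3 and 3 in UCP1(-/-) iBAT (13.9% and 59.5%). In iWAT 3 rose and 0 fell in wildtype mice (7.25% and 12.4%), and 3 and 3 in UCP1(-/-) mice (9.02% and 51.4%). The falls in UCP1(-/-) mice were lost under both other scalings, with 4 and 0 or 3 and 0 in iBAT and 4 and 0 in iWAT. The list's median was −0.04, 0.09, 0.28 and 0.26, against −0.12, −0.34, −0.10 and −0.25 over all genes tested.

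Ceramide synthases use very long chains such as those of Elovl1. In wildtype mice 0 were higher and 1 lower at 20 °C among 4 tested in iBAT and among 5 in iWAT. The shares of all genes were 11.6% and 33.0% in iBAT and 7.25% and 12.4% in iWAT. The counts in UCP1(-/-) mice were 1 and 3 in iBAT (13.9% and 59.5% of all genes) and 0 and 2 in iWAT (9.02% and 51.4%). Under median-ratio scaling the counts in iWAT were 2 and 2. The list medians were −0.63 and −0.10, against −0.34 and −0.25 over all genes tested. In iBAT, Cers6 was 1.49 ± 0.16 higher in UCP1(-/-) than in wildtype mice at 30 °C, with means of 3.36 and 0.486 RPKM (adjusted p = 3.39e-11, limma). All 4 tested synthases were higher in UCP1(-/-) iBAT at 30 °C, where 54.2% of all genes were higher and 10.5% lower. This count became 2 higher and 1 lower under median-ratio scaling and 1 and 0 under quantile normalization. Macrophage marker sums were high in the same group, and their part in this was not tested.

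Genes of very long chain acyl-CoA breakdown gave 6 higher and 2 lower of 11 at 20 °C in iBAT of either genotype, 6 and 0 in wildtype iWAT and 6 and 1 in UCP1(-/-) iWAT. Median-ratio scaling gave 9 and 0 in both UCP1(-/-) tissues. The medians were 0.21, 0.50, 0.27 and 0.27, against −0.12, −0.34, −0.10 and −0.25 over all genes tested. All genes gave 11.6% higher and 33.0% lower in wildtype iBAT and 13.9% and 59.5% in UCP1(-/-) iBAT. They gave 7.25% and 12.4% in wildtype iWAT and 9.02% and 51.4% in UCP1(-/-) iWAT. Ehhadh, the bifunctional enzyme of the peroxisome, was lower at 20 °C in wildtype iBAT (−0.95 ± 0.14, adjusted p = 4.28e-07, limma) and higher in UCP1(-/-) iBAT (1.17 ± 0.14, adjusted p = 7.1e-10, limma), wildtype iWAT (1.24 ± 0.18, adjusted p = 1.75e-06, limma) and UCP1(-/-) iWAT (1.55 ± 0.18, adjusted p = 2.25e-09, limma). Of 10 regulators of these pathways, 2 rose and 2 fell in wildtype iBAT, 3 and 2 in UCP1(-/-) iBAT, 2 and 0 in wildtype iWAT and 4 and 3 in UCP1(-/-) iWAT. Under median-ratio scaling these were 4 and 2, 8 and 1, 2 and 0, and 5 and 0. The medians of the regulators were −0.07, 0.08, 0.04 and −0.13, to be read against the same shares and medians of all genes. Insig1, a sterol-regulated brake on lipid synthesis, rose by 1.70 ± 0.14 in wildtype iBAT and 1.11 ± 0.19 in wildtype iWAT (adjusted p = 8.34e-14 and 3.92e-05, limma). Srebf1, a driver of Elovl6 in mouse liver, rose by 0.72 ± 0.14 in wildtype iBAT (adjusted p = 3.61e-05, limma) but was lower at 20 °C in UCP1(-/-) iBAT (−0.84 ± 0.14, adjusted p = 7.16e-07, limma).

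Over the 48 libraries of a tissue, the genes whose pattern was most like that of a member were found by Pearson's r of log2(RPKM + 1) among 11150 genes in iBAT and 12177 in iWAT. These values are descriptions, since the libraries share their groups, depth and scaling. Elovl6 lay closest to Pygl (r = 0.971), the liver-type glycogen phosphorylase, Tkt (0.964), a transketolase, and Mpc1 (0.956), a pyruvate carrier subunit, in iBAT, and to Tkt (0.980), Fasn (0.978) and Mpc1 (0.977) in iWAT. With the group means removed, r of Elovl6 with Tkt was 0.717 in iBAT and 0.861 in iWAT. Elovl3 lay closest to Dnajc22, Acsf2 and Hmox2 in iBAT (0.892, 0.889 and 0.889), and to Cpt1b and Ppp1r3b in iWAT (each 0.973), of which Cpt1b encodes the muscle-type carnitine palmitoyltransferase. With the group means removed, r of Elovl3 was 0.259 with Acsf2 in iBAT and 0.692 with Cpt1b in iWAT.

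Elovl1 lay closest to Atp8b2, Clic1 and Cnn2 in iBAT (each 0.976), and to Arhgdia, Tagln2 and Lasp1 in iWAT (0.970, 0.966 and 0.962); Cnn2, Tagln2 and Lasp1 encode proteins of the actin cytoskeleton. Elovl5 had weaker neighbours, with Me1, the malic enzyme, at 0.734 in iBAT and Doc2g at 0.801 in iWAT. Among the members themselves, r of Elovl3 with Elovl6 was 0.611 in iBAT and 0.923 in iWAT, and 0.423 and 0.389 with the group means removed. For Elovl1 with Elovl6 it was −0.894 and −0.891, and −0.355 and −0.110 with the group means removed.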

How the data were processed

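Per the labels' protocols, RNA was isolated from frozen tissue with TRIsure and column purification, and libraries were built with the TruSeq Stranded mRNA kit. CASAVA and bcl2fastq are named in the submitters' processing notes. The aligner, counter and build were not given in the sources used here. The authors deposited 1 table of RPKM for 168326 transcript rows, with a column for each library and no pooling. Depth was recovered from the spacing of low RPKM values, of which 94.9 to 95.7% were whole reads within 0.05 of a read; intervals from depth would cover counting error only.

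The row of highest mean stood for each symbol. Genes reaching 0.5 RPKM in 8 or more libraries of a fit entered it (14807 for iBAT, 15897 for iWAT, 16310 for both). Rows with no gene identifier (13.8% of rows) were left out. log2(RPKM + 1) was fitted with limma 3.58.1 (trend, R 4.3.3), per tissue over 48 libraries with 6 group means, and over 96 libraries for tissue; 26 comparisons were made, 2-sided, with Benjamini-Hochberg adjustment within each. The step was tested on simulated data. The alternatives were a pseudocount of 0.1, no filter, median-ratio scaling, quantile normalization, summed transcript rows and only the compared groups. The members, gene lists (elongation cycle partners, desaturases, substrate supply, ceramide synthases, very long chain acyl-CoA breakdown, regulators and cell type markers) and tests were chosen with earlier results of these data known. All 7 members could be named in every comparison, as could the 4 list genes with the smallest p and, for each member above 1 RPKM up to 3 genes of highest correlation, of which 1 is not reported here. List genes were matched by older symbols through the gene identifiers. Promoter sequences are RefSeq's for GRCm38.p6.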

Additional observations from a re-analysis of the deposited data

Results flagged for a closer look

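In groups of 8 libraries, 15 of 84 combinations of gene and group held a highest library that stood far from the rest by Dixon's criterion, which chance alone passes in about 1 in 20 groups. Elovl3 stood at 543 RPKM in replicate 30 (UCP1(-/-) iBAT at 30 °C, others 166 to 327), 176 RPKM in replicate 37 (wildtype iBAT on high fat diet, others 7.33 to 46.5), 741 RPKM in replicate 64 (UCP1(-/-) iWAT at 20 °C, others 210 to 401) and 5.57 RPKM in replicate 87 (wildtype iWAT on high fat diet, others 0.158 to 0.496). Elovl6 stood at 112 RPKM in replicate 30 (others 51.8 to 76.3) and 24.3 RPKM in replicate 87 (others 2.29 to 4.98). Elovl7 stood at 1.72 RPKM in replicate 89 (UCP1(-/-) iWAT on high fat diet, others 0.164 to 0.827).

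Elovl2 stood at 0.389 RPKM in replicate 22 (wildtype iBAT at 30 °C), 0.431 RPKM in replicate 33 (wildtype iBAT on high fat diet), 17.5 RPKM in replicate 54 (wildtype iWAT at 20 °C), 0.554 RPKM in replicate 64 and 2.68 RPKM in replicate 77 (UCP1(-/-) iWAT at 30 °C), against highest other values of 0.181, 0.149, 4.51, 0.193 and 0.349 RPKM. Elovl4 stood at 1.64 RPKM in replicate 13 (UCP1(-/-) iBAT at 20 °C), 0.847 RPKM in replicate 56 (wildtype iWAT at 20 °C) and 1.85 RPKM in replicate 77, against 0.848, 0.189 and 0.193 RPKM.

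Other genes of the same libraries also stood apart, and their part in these values was not tested. Replicate 87 had 735 RPKM of Fasn (others 91.2 to 204) and a brown marker sum of 295 (others 41.3 to 92.7). Replicate 30 had a brown marker sum of 4863 (others 2381 to 3592) and replicate 64 one of 3545 (others 1439 to 2283). The sum of epithelial and skin markers was 22.6 in replicate 77 (others 1.09 to 2.68) and 51.8 in replicate 89 (others 1.14 to 5.69).

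Effects that differed between groups by a test of the difference (limma) were, for genotype and temperature in iBAT, Elovl1 (−0.51, adjusted p = 0.0048), Elovl3 (1.09, 0.023), Elovl4 (0.56, 0.00051) and Elovl7 (0.58, 3.2e-05). In iWAT they were Elovl1 for temperature (−0.34, 0.022) and Elovl3 (−2.20, 0.015) and Elovl6 (−2.23, 0.0042) for diet. For tissue and temperature they were Elovl3 (−1.40, 0.025), Elovl6 (−1.55, 0.00042) and Elovl7 (−0.56, 0.0011) in wildtype mice, and Elovl1 (−0.51, 0.0016), Elovl3 (−1.40, 0.017), Elovl4 (0.46, 0.017) and Elovl6 (−0.90, 0.04) in UCP1(-/-) mice. Elovl4 and Elovl7 lay near the detection limit and entered the iBAT fit through groups in which they were high. Their values in this list are description only.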

How the results depend on the processing

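No paired analysis was possible because library numbers run from 1 to 96 and groups share none. The counts of members called stayed within 1.5 times in each kind of comparison under the 6 other settings and with RefSeq transcript rows, an alternative chosen after seeing the data. Among differences called in either fit, signs turned for Elovl5 with median-ratio scaling (UCP1(-/-) minus wildtype iBAT at 30 °C, −0.29; iBAT minus iWAT in wildtype mice, 0.43 at either temperature and 0.29 on high fat diet) and with quantile normalization (0.01 on high fat diet), and for Elovl7 with quantile normalization (iBAT minus iWAT in wildtype mice on high fat diet, 0.07); the cause was not tested. A further 10 and 14 differences, called in neither fit, changed sign under these scalings. Leaving out each outlying library, chosen after seeing the data, ended 6 calls, made 2 and left the calls of 56 results as they were. Among the ended calls, the Elovl4 difference of tissue and temperature in UCP1(-/-) mice (0.46) was 0.36 (adjusted p = 0.0581) without replicate 13 and 0.29 (adjusted p = 0.0657, limma) without replicate 77. Calls over all genes moved by more than 1.5 times with only the compared groups in the fit for diet in UCP1(-/-) iBAT (2424 to 1428), for genotype on high fat diet in iWAT (45 to 13) and for genotype and diet in iWAT (212 to 369). With quantile normalization the latter 2 became 71 and 346. For temperature in UCP1(-/-) iWAT, 9598 calls became 6033 (median-ratio) and 5813 (quantile), and for genotype and temperature in iWAT 2110 became 1397 and 870.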
